A study of Sus scrofa with 9 samples.

Results

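The genes described here are 9 cathepsins and the cathepsin inhibitor cystatin C in the abdominal aorta of Tibetan minipigs. The members were CTSA, CTSB, CTSC, CTSD, CTSH, CTSK, CTSL, CTSS, CTSZ and CST3, each taken as the gene of that name in a table of 21357 genes. Of the 10 names, 9 occurred in the table, once each. No gene of the table was named CTSK.

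Cathepsins are proteases that work mainly in the acidic lysosome. Most are made as inactive precursors and are activated there. CTSB, CTSC, CTSH, CTSK, CTSL, CTSS and CTSZ are cysteine proteases of the papain family, CTSD is an aspartic protease, and CTSA is a serine carboxypeptidase that also shields other lysosomal enzymes from degradation. Cystatin C, the product of CST3, is a secreted inhibitor that blocks cysteine cathepsins outside the cell and has no known action on CTSD. In the arterial wall, macrophages and smooth muscle cells can release CTSB, CTSK, CTSL and CTSS, which can cleave elastin and collagen, and these enzymes have long been studied in atherosclerosis.

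Male minipigs gave RNA from the abdominal aorta in 3 groups of 3 libraries. The NC group received a normal diet for 24 weeks, the H24 group (labelled atherosclerosis) a high-fat diet for 24 weeks and the H8 group (labelled hypercholesterolemia) a high-fat diet for 8 weeks. The study's methods describe the diet of the 24-week model as enriched in shortening oil, cholesterol and egg yolk powder, fed to pigs that were a few months old at the start. They do not describe the H8 group, so its pigs differ from NC in the weeks of feeding as well as in diet, and diet and age cannot be told apart in H8/NC, nor weeks of diet and age in H24/H8. No library was stated to be a pool of animals, and p-values measure the spread between these libraries.

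The libraries held 44094263 to 75787978 estimated counts. A floor of 3 counts corresponded to 0.0396 to 0.068 CPM (counts scaled to library size), and it covers counting error only. Levels are given in FPKM, which corrects for transcript length and depth. The smooth muscle markers (7 of 7 with a value, MYH11, ACTA2 and TAGLN among them) summed to 11920 to 13990 FPKM in NC, 10130 to 13700 in H8, and 8187, 12050 and 1747 in H24 replicates 1, 2 and 3. The extraction text of the labels speaks of an adipose type, and the 6 adipocyte markers summed to 62.1 to 174 FPKM in the 9 libraries. H24 replicate 3 stood apart from the rest, with a correlation of log2 FPKM over genes of 0.67 to 0.831 with the other libraries. H24 fold changes of the members, and of genes called elsewhere, are therefore given with and without that library. The 10 macrophage markers (CD68, CD14, CSF1R, MSR1, CD163, AIF1, C1QA, C1QB, C1QC and ADGRE1) were above 0 in every library. They summed to 25.3 to 34.6 FPKM in NC, to 191, 33.0 and 91.3 in H8 replicates 1, 2 and 3, and to 311, 184 and 2000.0 in H24 replicates 1, 2 and 3. Markers of T and NK cells and of neutrophils and mast cells were also lowest in NC and highest in H24 replicate 3. Those of B and plasma cells were lowest in H8. The 7 T and NK cell markers summed to 1.3 to 2.84 FPKM in NC, 21.5, 3.13 and 8.94 in H8 replicates 1, 2 and 3, and 30.8, 37.8 and 356 in H24. The 4 of 5 neutrophil and mast cell markers with a value summed to 0.47 to 1.08 FPKM in NC, 4.79, 2.51 and 3.90 in H8, and 8.96, 5.57 and 53.3 in H24. The 5 B and plasma cell markers summed to 7.208, 5.875 and 6.124 FPKM in NC, 3.523, 2.288 and 4.632 in H8, and 11.5, 10.38 and 13.69 in H24. The part of these marker lists in the members' differences was not tested. In these bulk samples, fewer cells of a type and less RNA per cell cannot be told apart.

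The 9 measured members differed widely in level, from CTSL near 1 FPKM in most libraries to CST3 and CTSB above 100 FPKM in every library. In NC the order of the group means was CST3 (146 ± 20.2 FPKM, SD, n = 3), CTSB (145 ± 28.0), CTSZ (101 ± 11.3), CTSA (80.6 ± 8.53), CTSD (41.1 ± 5.60), CTSH (29.1 ± 0.347), CTSC (8.68 ± 2.55), CTSS (3.29 ± 0.740) and CTSL (0.793 ± 0.514). CST3 and CTSB did not differ beyond their spread, and in NC their order changed between libraries. CTSL was the lowest member in all 9 libraries. In H24 replicate 3 the order was led by CTSD (1876 FPKM) and CTSZ (1826), with CST3 in place 4. Together the 9 genes made up 0.199 to 0.21% of all FPKM in NC. Their share was 0.446, 0.231 and 0.309% in H8 replicates 1, 2 and 3, and 0.601, 0.515 and 2.75% in H24 replicates 1, 2 and 3. H8 replicate 2 was thus the H8 library closest to NC, as it was for the macrophage markers.

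**Figure D1:**
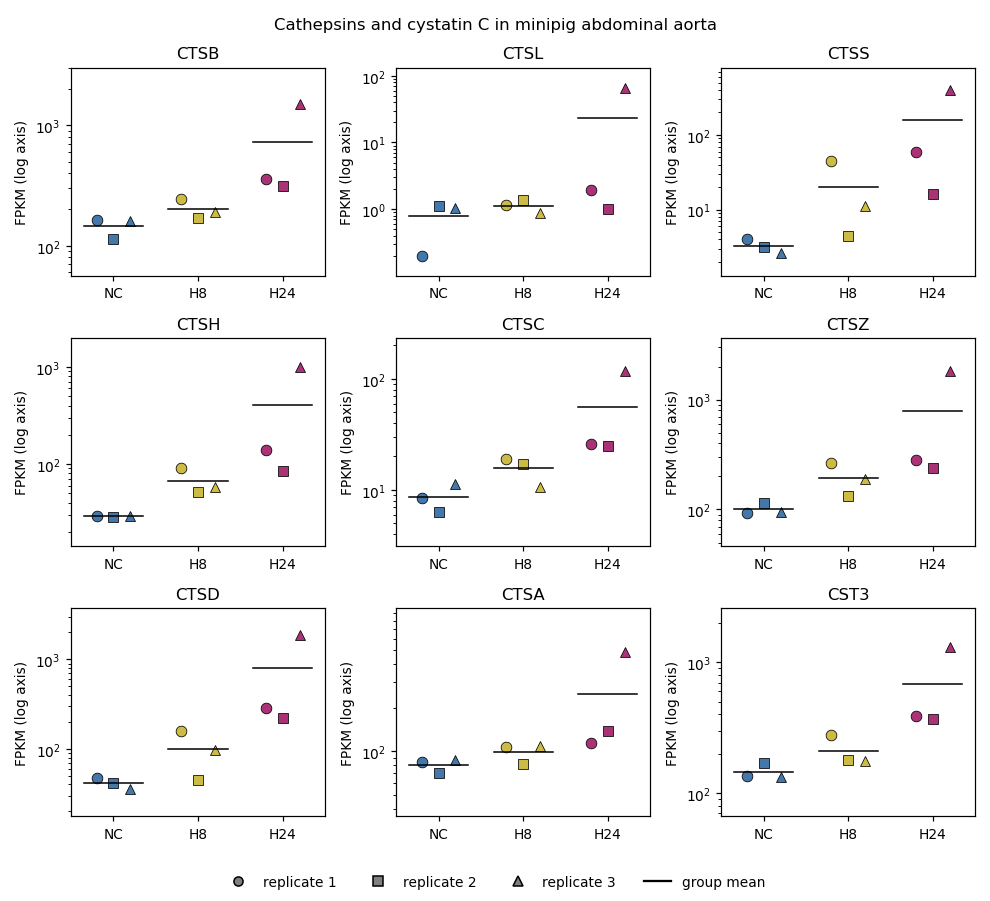
FPKM of each of the 9 measured members (log axis) in the 9 libraries, by group, with the group mean as a horizontal line and the replicate number as the symbol. H24 replicate 3 is the highest library in all 9 panels, and apart from CTSL every H24 library lies above every NC library.

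After 24 weeks of high-fat diet, the measured members were called higher than in NC, CTSL through a single library. Under the study's thresholds (a log2 fold change over 1 with an unadjusted p under 0.05 in edgeR's quasi-likelihood test), 9 of 9 members were called higher in H24/NC, against 9.95% of all 14828 genes tested, and 0 of 9 were called lower, against 1.52%. The median log2 fold change was 2.94 over the members and 0.008 over all genes. In 8 of 9 members the lowest H24 library lay above the highest NC library (12.8% of all genes did so). An exact permutation test of 3 against 3 libraries cannot give a p below 0.1, which those 8 members reached. None of the 9 passed a Benjamini-Hochberg adjusted p of 0.05 in edgeR, where 0.0% of all genes did. All 9 were higher with an unadjusted p under 0.05, as were 11.0% of all genes. With DESeq2, which gave no p for CTSL, 7 passed the adjusted threshold (5.93% of all genes did), and with limma on log2(FPKM + 0.1) 0 passed. With H24 replicate 3 left out, 7 of 9 members (all but CTSA and CTSL) were called higher, against 6.49% of genes, and the same 7 also passed the adjusted threshold in edgeR, against 1.99% of genes. The median log2 fold change was then 1.35. Over all alternatives tried, the adjusted p ran from 2.08e-07 to 0.465 for CTSS, from 2.48e-06 to 0.465 for CTSD and from 0.00151 to 0.505 for CST3.

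Among the endopeptidases that cut within protein chains, CTSS had the largest change. CTSS takes part in antigen presentation by trimming the invariant chain, and unlike most cathepsins it stays active at neutral pH. Its level was 4.08, 3.18 and 2.61 FPKM in NC replicates 1, 2 and 3, 45.1, 4.41 and 11.2 in H8, and 59.1, 16.4 and 399 in H24. Both H8 and H24 lay wholly above NC, but H8 replicate 2 exceeded the highest NC library only slightly, and H8 replicate 1 was higher than H24 replicate 2. In H24/NC its log2 fold change was 5.57 (SE 1.20, edgeR adjusted p = 0.132), and 3.47 (SE 0.48, edgeR adjusted p = 0.0159) without H24 replicate 3.

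CTSB, an abundant endopeptidase that also trims dipeptides from protein ends, was at 163, 113 and 160 FPKM in NC, 245, 171 and 189 in H8, and 356, 311 and 1507 in H24. The 3 groups did not overlap, with the H8 libraries between the others. CTSB had a log2 fold change in H24/NC of 2.31 (SE 0.66, edgeR adjusted p = 0.204), and 1.18 (SE 0.22, edgeR adjusted p = 0.0424) without H24 replicate 3.

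CTSL, a broad lysosomal endopeptidase, behaved differently. It was at 0.201, 1.13 and 1.05 FPKM in NC, 1.14, 1.36 and 0.873 in H8, and 1.94, 0.998 and 66.5 in H24. These values rested on 49 to 472 counts in the first 8 libraries and on 14871 counts in H24 replicate 3. The groups overlapped, and a single library carried the group difference. Its log2 fold change of 4.84 in H24/NC (SE 1.71, edgeR adjusted p = 0.287) became 0.84 (SE 0.70, edgeR adjusted p = 0.783) without H24 replicate 3.

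Among the cysteine cathepsins that trim chain ends, CTSH, an aminopeptidase, had the tightest NC values of all members. It was at 29.0, 28.7 and 29.4 FPKM in NC, 90.5, 51.9 and 58.2 in H8, and 140, 84.6 and 997 in H24. Every high-fat library was above every NC library, while H24 replicate 2 lay within the H8 range. For CTSH the log2 fold change in H24/NC was 3.79 (SE 0.96, edgeR adjusted p = 0.157), and 1.92 (SE 0.24, edgeR adjusted p = 0.00989) without H24 replicate 3.

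CTSC, or dipeptidyl peptidase 1, activates granule serine proteases of immune cells. Its level was 8.41, 6.27 and 11.3 FPKM in NC, 19.0, 17.2 and 10.7 in H8, and 25.8, 24.8 and 117 in H24. H24 lay above all other libraries, whereas H8 replicate 3 fell inside the NC range. The H24/NC difference in CTSC was 2.68 on the log2 scale (SE 0.67, edgeR adjusted p = 0.157), and 1.53 (SE 0.26, edgeR adjusted p = 0.0326) without H24 replicate 3.

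CTSZ, a carboxypeptidase that can also bind integrins at the cell surface, was at 93.4, 114 and 95.3 FPKM in NC, 266, 132 and 188 in H8, and 281, 239 and 1826 in H24. All high-fat libraries were above NC, and H8 replicate 1 was above H24 replicate 2. CTSZ had a log2 fold change in H24/NC of 2.94 (SE 0.83, edgeR adjusted p = 0.198), and 1.34 (SE 0.21, edgeR adjusted p = 0.0225) without H24 replicate 3.

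CTSD, the main lysosomal aspartic protease, was the member with the largest change after CTSS among those whose groups did not overlap. It was at 46.7, 41.1 and 35.5 FPKM in NC, 159, 45.3 and 97.2 in H8, and 286, 221 and 1876 in H24. The H24 libraries were above all others, and H8 replicate 2 fell inside the NC range. In H24/NC its log2 fold change was 4.26 (SE 0.92, edgeR adjusted p = 0.132). It was 2.6 without H24 replicate 3 (SE 0.22, edgeR adjusted p = 0.0046), with the smallest adjusted p of the members in that fit.

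CTSA had the smallest change. Its level was 83.7, 71.0 and 87.2 FPKM in NC, 107, 81.5 and 108 in H8, and 114, 139 and 488 in H24. H24 lay above both other groups, with a small gap between H8 and H24 replicate 1. CTSA had a log2 fold change in H24/NC of 1.60 (SE 0.57, edgeR adjusted p = 0.292). It was under the fold threshold, at 0.63, without H24 replicate 3 (SE 0.21, edgeR adjusted p = 0.287).

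The inhibitor CST3 was higher together with the enzymes. It was at 135, 169 and 133 FPKM in NC, 278, 179 and 176 in H8, and 390, 367 and 1299 in H24. The 3 groups did not overlap, but H8 replicates 2 and 3 were close to NC replicate 2. CST3 had a log2 fold change in H24/NC of 2.21 (SE 0.56, edgeR adjusted p = 0.157), and 1.35 (SE 0.21, edgeR adjusted p = 0.0231) without H24 replicate 3.

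**Figure D2:**
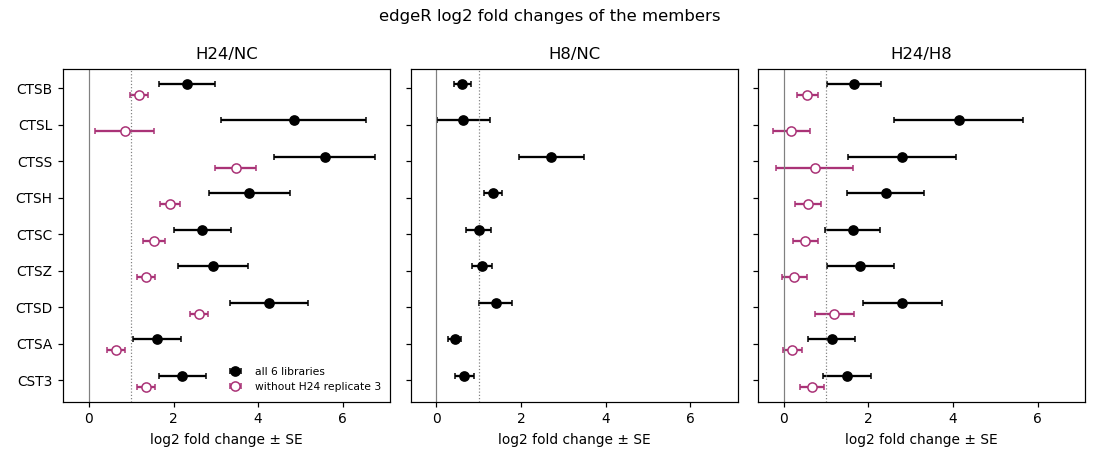
edgeR log2 fold changes with SE of the 9 measured members in H24/NC, H8/NC and H24/H8 (filled, all 6 libraries of a comparison; open, without H24 replicate 3), with a line at 0 and a dotted line at 1. In H24/NC CTSS reaches 5.57 and CTSA 1.60, and without H24 replicate 3 CTSA (0.63) and CTSL (0.84) lie below 1.

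After 8 weeks of high-fat diet, part of the family was already higher than in NC. In H8/NC, 5 of 9 members (CTSC, CTSD, CTSH, CTSS and CTSZ) were called higher, against 5.11% of all 14336 genes tested, and 0 of 9 lower, against 2.27%. The log2 fold change was 2.72 (SE 0.76) for CTSS, 1.40 (SE 0.39) for CTSD, 1.33 (SE 0.21) for CTSH, 1.07 (SE 0.24) for CTSZ and 1.0 (SE 0.30) for CTSC, which was just past the fold threshold. CST3 (0.66, SE 0.23), CTSB (0.61, SE 0.20) and CTSA (0.43, SE 0.15) had unadjusted p-values under 0.05 but were under the fold threshold. CTSL was at 0.64 (SE 0.62, edgeR adjusted p = 0.668). The groups did not overlap in 5 of 9 members (CTSB, CTSH, CTSS, CTSZ and CST3), against 6.91% of all genes. No member passed the adjusted threshold in edgeR, where 0.014% of all genes did, while 8 of 9 were higher with an unadjusted p under 0.05, against 8.89% of all genes. DESeq2 passed 4 (CTSD, CTSH, CTSS and CTSZ), against 3.1% of all genes, and limma 0. The call count depended on the setting. It was 2 of 9 without H8 replicate 1 (4.72% of genes), 1 of 9 with all 9 libraries in one fit (3.72%) and 3 of 9 with library size only (4.02%). It was also 3 of 9 with limma on log2(FPKM + 0.1) (3.17%) and on log2(FPKM + 1) (1.41%).

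Between 8 and 24 weeks of high-fat diet, 6 of the 9 members were called higher at the later time, and 5 of the 6 calls were lost without H24 replicate 3. In H24/H8 these were CTSB, CTSC, CTSD, CTSH, CTSL and CST3 (6 of 9), against 7.22% of all 14788 genes tested, and 0 lower, against 3.05%. The log2 fold changes of these 6 were 1.5 (CST3) to 4.13 (CTSL). Those of the others were 2.79 for CTSS (SE 1.27), 1.81 for CTSZ (SE 0.80) and 1.13 for CTSA (SE 0.56), with unadjusted p-values over 0.05 in edgeR. Without H24 replicate 3 those 3 values were 0.73, 0.25 and 0.20. The groups did not overlap in 5 of 9 members (CTSA, CTSB, CTSC, CTSD and CST3), against 15.5% of all genes. No member passed the adjusted threshold in edgeR (0.0135% of genes did) or limma, and 6 were higher with an unadjusted p under 0.05 in edgeR, against 8.68% of genes. DESeq2 passed CTSD alone, against 3.02% of all genes. With H24 replicate 3 left out, 1 of 9 members was called higher, against 3.75% of genes. That member was CTSD, with a log2 fold change of 1.19 (SE 0.46, edgeR adjusted p = 0.434). Leaving out H8 replicate 1 gave 3 of 9 in edgeR (5.98% of genes), and leaving out H8 replicate 2 (3.73%) or 3 (4.18%) gave 0 of 9, with 0 at an unadjusted p under 0.05. Both comparisons with NC share the NC libraries, and H24/H8 shares its libraries with both, so the 3 comparisons are not independent.

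The mRNA levels of enzymes and inhibitor were compared by the ratio of FPKM within each library. Protein, activation of the precursors and secretion were not measured, so these ratios do not give the balance of active enzyme and inhibitor. The summed cysteine cathepsins (CTSB, CTSC, CTSH, CTSL, CTSS and CTSZ) were 2.21, 1.57 and 2.25 times CST3 in NC, 2.40, 2.11 and 2.6 times in H8, and 2.22, 1.84 and 3.78 times in H24. Outside H24 replicate 3 the ratio ranged from 1.57 to 2.6, although the summed enzymes went from 266 to 299.8 FPKM in NC to 677 and 864 FPKM in H24 replicates 2 and 1. Single enzymes differed in their ratio to CST3. CTSA and CTSD, also given here, are not cysteine proteases and are not part of that sum. The mean log2 ratio of CTSB to CST3 was -0.02 in NC, -0.05 in H8 and -0.05 in H24 (SD 0.49, 0.14 and 0.23). That of CTSS to CST3 was -5.48, -3.98 and -2.97 (SD 0.38, 1.37 and 1.41), with H8 replicate 2 (-5.35) within the NC range and all H24 libraries above it. That of CTSA to CST3 was -0.85, -1.07 and -1.53 (SD 0.35, 0.34 and 0.21), in the opposite direction. The ratio for CTSD was -1.83, -1.22 and -0.22 (SD 0.27, 0.66 and 0.66). In H24 replicate 3 CTSD, CTSB and CTSZ each exceeded CST3.

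Set against 6 macrophage markers (the geometric mean of CD68, CD14, CSF1R, MSR1, CD163 and AIF1), the members separated further. The geometric mean of the markers was 1.52, 1.43 and 1.65 FPKM in NC, 7.45, 1.49 and 3.94 in H8, and 14.7, 6.88 and 75.9 in H24. CTSD followed the markers most closely: its mean log2 ratio to them was 4.74 in NC, 4.65 in H8 and 4.64 in H24 (SD 0.27, 0.26 and 0.36). The highest ratio of CTSD in any library was 1.65 times the lowest, while CTSD itself went from 35.5 to 1876 FPKM. CTSS had a log2 ratio of 1.08, 1.89 and 1.88 (SD 0.39, 0.62 and 0.58). CST3 went the other way, with 6.56, 5.87 and 4.86 (SD 0.28, 0.91 and 0.83), as did CTSA with 5.71, 4.80 and 3.32 (SD 0.08, 0.96 and 0.88). The mean log2 ratio was also lower in H24 than in NC for CTSB (6.55 in NC and 4.80 in H24), CTSZ (6.03 and 4.66), CTSC (2.46 and 1.10) and CTSH (4.24 and 3.53). The part of the macrophage markers in the members' differences was not tested.

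**Figure D3:**
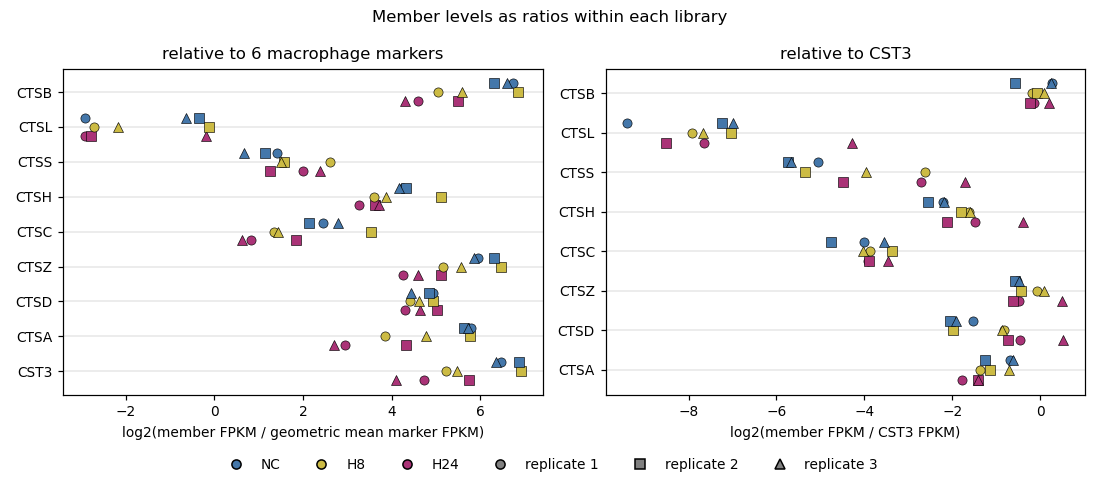
log2 ratios of each member's FPKM to the geometric mean FPKM of 6 macrophage markers (left) and to CST3 FPKM (right), with 1 symbol per library coloured by group. On the left CTSD keeps nearly the same ratio in all 9 libraries (highest 1.65 times the lowest), whereas CST3 and CTSA lie lower in H24. On the right CTSS lies higher in H24.

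The members moved together across libraries. Over the 9 libraries the Pearson correlation of log2(FPKM + 0.1) had a median of 0.95 over the 36 pairs of members (lowest 0.794, CTSL with CTSS, and highest 0.991, CTSH with CTSZ). The median was 0.863 without H24 replicate 3, and 0.901 after subtracting the group means. With that library left out, the correlations of CTSL with the others were 0.232 (with CTSA) to 0.57 (with CTSH). All points share the same libraries and H24 replicate 3 is an extreme in each pair, so these values are a description. Among 6726 genes averaging 5 FPKM or more, the 5 non-members most like CTSS were MSR1 (r = 0.996), HCLS1 (0.991), ST14 (0.989), C1QC (0.989) and HAVCR2 (0.988). MSR1, ST14 and HAVCR2 averaged 1.73, 1.63 and 2.40 FPKM over the other 8 libraries and reached 5 FPKM only through H24 replicate 3. The r of these 5 genes with CTSS was 0.975 to 0.991 without that library. MSR1 is a macrophage scavenger receptor and C1QC a chain of complement C1q. MSR1 was at 0.394, 0.224 and 0.255 FPKM in NC, 3.54, 0.383 and 1.3 in H8, and 5.62, 2.10 and 32.3 in H24. The genes most like CST3 were SLC49A3 (0.99), DNASE2 (0.99), ENSSSCG00000003278 (0.989), SRGN (0.986) and ITGB3 (0.985). Of these, ENSSSCG00000003278 (1.35 FPKM over the other 8 libraries) and ITGB3 (4.17) reached 5 FPKM only through H24 replicate 3. The r of the 5 with CST3 was 0.954 to 0.975 without that library. DNASE2 encodes a lysosomal nuclease and SRGN a granule proteoglycan. In a ranking added after seeing the data, over the 8 other libraries and the 6550 genes averaging 5 FPKM or more in them, the genes most like CTSS were HCLS1 (0.986), RNF128 (0.982), C1QC (0.975), VSIG4 (0.974) and LIPA (0.973). Those most like CST3 were ENSSSCG00000001341 (0.984), SLC49A3 (0.975), DNASE2 (0.971), PLD3 (0.97) and ATP6AP1 (0.956). HCLS1 and C1QC for CTSS, and SLC49A3 and DNASE2 for CST3, were in both rankings.

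CTSK, the collagen-cleaving cathepsin best known from osteoclasts, could not be given a level. In RefSeq (Sscrofa11.1, the build named in the study's methods) CTSK lies at chr4:98389459-98404969. The table's ARNT gene spans chr4:98333459-98404961 and its CTSS gene chr4:98389479-98470107, both on the plus strand, and both cover nearly the whole CTSK locus. RefSeq places ARNT only up to position 98390012 and CTSS at chr4:98415273-98442952. Reads from CTSK may therefore be counted under ARNT, under CTSS or under neither, and these cannot be told apart here. The CTSS values above carry that limit. ARNT, which encodes a partner of the hypoxia-inducible and aryl hydrocarbon receptor factors, was at 49.3, 49.5 and 52.5 FPKM in NC, 52.0, 60.0 and 50.8 in H8, and 52.6, 67.8 and 277 in H24. H24 replicate 3 alone stood clear of the other libraries. ARNT had a log2 fold change in H24/NC of 1.38 (SE 0.63, edgeR adjusted p = 0.399), and 0.24 (SE 0.21) without that library. HORMAD1, at chr4:98447298-98469650 in RefSeq, lies inside the CTSS span that ends at 98470107, and was at 0.0 to 0.243 FPKM in every library. GOLPH3L, which starts past the end of that span, was at 20.7, 20.0 and 23.4 FPKM in NC and 27.7, 13.01 and 17.8 in H24 (log2 fold change -0.16, and -0.11 without H24 replicate 3). The 5 osteoclast markers (ACP5, OCSTAMP, DCSTAMP, CALCR and ATP6V0D2) summed to 0.502 to 0.926 FPKM in NC, 1.28 to 7.82 in H8, 18.4 and 7.93 in H24 replicates 1 and 2, and 374.5 in H24 replicate 3. Their part in the ARNT and CTSS values was not tested.

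CTSL carries a second doubt over its name. The gene named CTSL lies at chr10:27666976-27675171, where RefSeq also places CTSL. RefSeq also lists CTSL, CTSL1 and CTSL2 as synonyms of CTSV, at chr10:25202360-25208058. The gene named CTSV was far more abundant than CTSL in all libraries but H24 replicate 3. It was at 34.3, 45.3 and 59.9 FPKM in NC, 35.3, 71.3 and 42.5 in H8, and 52.2, 37.5 and 26.4 in H24. Its groups overlapped and H24 replicate 3 was its lowest library, the reverse of CTSL. CTSV had a log2 fold change in H24/NC of -0.30 (SE 0.32, edgeR adjusted p = 0.731), and -0.08 without H24 replicate 3. These genes are close relatives, and reads that they share are uncertain.

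**Figure D4:**
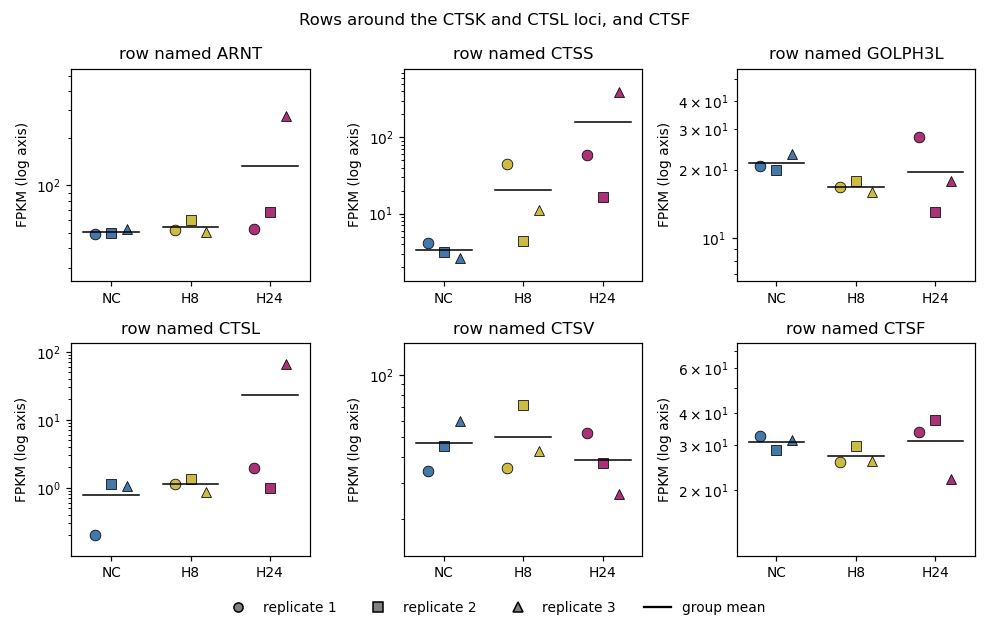
FPKM (log axis) by library for the table's genes around the CTSK locus (ARNT, CTSS and GOLPH3L), for CTSL and CTSV, and for CTSF, with group means as lines and replicates as symbols. ARNT (277 FPKM) and CTSL (66.5) are high in H24 replicate 3 only, CTSS differs between groups in the other libraries as well, and CTSV has its lowest value (26.4) in H24 replicate 3.

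The other cathepsins were not called in H24/NC. Of 6 named, 4 were tested and 0 were called in either direction by edgeR, with 0 at an unadjusted p under 0.05. Of all genes 9.95% were called higher and 1.52% lower, and 0 of 4 is near those shares. CTSF was at 32.5, 28.7 and 31.4 FPKM in NC and 33.8, 37.5 and 22.0 in H24 (log2 fold change -0.01, SE 0.25). CTSO had a log2 fold change of 0.17 (SE 0.51), and CTSW, a cathepsin of cytotoxic lymphocytes, of 0.54 (SE 0.25). Without H24 replicate 3 they were 0.19 for CTSF, 0.28 for CTSO and 0.42 for CTSW. At the adjusted threshold DESeq2 and limma called 0 of these 4 as well. In H24/H8, 1 of 4 was called higher (7.22% of all genes were), CTSW (1.10, SE 0.39, edgeR adjusted p = 0.341). Without H24 replicate 3 the CTSW value was about the same (1.0, SE 0.43), with an unadjusted edgeR p of 0.0531. In that fit 0 of these 4 were called, against 3.75% of all genes called higher.

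Of the other inhibitors, 5 of 11 named were tested, and 3 were called higher in H24/NC (9.95% of all genes were) with a median log2 fold change of 1.14. CSTB, which encodes the intracellular cystatin B, was at 66.0, 61.5 and 59.2 FPKM in NC, 102, 81.6 and 83.6 in H8, and 131, 98.3 and 863 in H24. Its libraries overlapped between H8 and H24 but not with NC. Its log2 fold change in H24/NC was 2.53 (SE 0.83, edgeR adjusted p = 0.258) and, without H24 replicate 3, 0.85. CST7, or cystatin F, was low: it was listed at 0 in NC replicate 1 and reached 3.67 FPKM in H24 replicate 3 and 0.647 and 0.749 FPKM in the other H24 libraries (log2 fold change 3.22, and 1.95 without replicate 3). A2M, a broad protease trap, was at 330, 345 and 245 FPKM in NC and 955, 770.0 and 341 in H24. Unlike the members, A2M was lowest in H24 replicate 3 among the H24 libraries. Its log2 fold change was 1.14 (SE 0.43) with all libraries and 1.46 without that one. A2M was then the only gene of this list still called higher (1 of 5, against 6.49% of all genes). In H8/NC, 1 of 5 was called lower (2.27% of all genes were). It was SERPINB1, an inhibitor of neutrophil serine proteases (-1.37, SE 0.16, edgeR adjusted p = 0.0652). SERPINB1 was not lower in H24/NC, where its groups overlapped (0.14, SE 0.31, and 0.41 without H24 replicate 3). In H24/H8, 2 of 5 were called higher (7.22% of all genes were), SERPINB1 among them (1.5, SE 0.34, and 1.76 without H24 replicate 3).

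Genes that activate cathepsins or act with them were mostly higher. In H24/NC, 6 of 8 tested were called higher (9.95% of all genes were) and 0 lower, with a median log2 fold change of 1.78, and without H24 replicate 3, 2 of 8 were called (6.49% of all genes). CD74, the invariant chain that CTSS processes, had a log2 fold change of 2.38 (SE 0.60). It was at 109, 159 and 84.2 FPKM in NC, 166, 106 and 113 in H8, and 338, 351 and 1176 in H24. H24 lay above the other groups, while H8 overlapped with NC, unlike CTSS, which was called higher in H8/NC. The difference between the genes was not tested. ITGB3, an integrin chain, had a log2 fold change of 2.73 (SE 0.74) and S100A10, an annexin A2 partner, of 1.80 (SE 0.54). Without H24 replicate 3 the values were 1.53 for CD74, 1.33 for ITGB3 and 0.95 for S100A10. CD74 and ITGB3 were the 2 still called without H24 replicate 3.

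The genes of sorting to the lysosome and of lysosomal transcription were mostly not called. In H24/NC, 3 of 13 were called higher (9.95% of all genes were) and 1 lower (1.52% were), with a median log2 fold change of 0.46. The 3 with the smallest p-values were TFEC, GNPTAB and NAGPA. TFEC is a relative of the lysosomal regulator TFEB, and its log2 fold change was 4.72 (SE 1.59). Its groups overlapped: it was at 0.0412, 0.409 and 0.327 FPKM in NC and 2.30, 0.229 and 19.2 in H24. GNPTAB and NAGPA make the mannose 6-phosphate tag by which many cathepsins are sorted, and their log2 fold changes were 1.79 (SE 0.66) and 1.43 (SE 0.50). The one called lower was SORT1, which encodes the sorting receptor sortilin (-1.13, SE 0.43). The 4 values were 2.19 for TFEC, 0.65 for GNPTAB, 0.64 for NAGPA and -0.76 for SORT1 without H24 replicate 3. With H24 replicate 3 left out, 0 of 13 were called in edgeR, against 6.49% of all genes called higher and 186 of 14578 called lower. In that fit 2 (SORT1 and the mannose 6-phosphate receptor gene M6PR, both lower) had an unadjusted p under 0.05 below the fold threshold.

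Of the serine proteases that CTSC activates, 5 of 8 named were tested in H24/NC, with a median log2 fold change of 2.2. In edgeR 0 were called, with 0 at an unadjusted p under 0.05 (9.95% of all genes were called higher and 1.52% lower). At the adjusted threshold DESeq2 and limma called none of them either. Their levels were low, at most 0.991 FPKM (GZMA in H24 replicate 3). GZMA, GZMB and GZMK were tested only with H24 replicate 3 included, and without it the median of the 2 tested was 0.14. These counts cannot show that the genes were unchanged. Of the matrix proteins that cathepsins can cleave, 1 of 12 was called higher and 0 lower, with a median log2 fold change of 0.16. That share is near the 9.95% of all genes called higher. The gene was VCAN, which encodes the proteoglycan versican, at 7.61, 5.44 and 3.51 FPKM in NC and 32.7, 26.4 and 35.2 in H24 (log2 fold change 2.49, SE 0.34, edgeR adjusted p = 0.129). The VCAN difference was about the same without H24 replicate 3 (2.40), when ACAN, aggrecan, was called too (1.92, and 1.38 with all libraries). That made 2 of 12 called higher without H24 replicate 3, against 6.49% of all genes. In H8/NC, 2 of 12 were called higher (5.11% of all genes were), the collagen genes COL1A1 (1.02, SE 0.23) and COL1A2 (1.15, SE 0.28). ELN, elastin, had a log2 fold change of -0.73 (SE 0.35) and LAMA4 of -0.66 (SE 0.32) in H24/NC (-0.57 and -0.43 without H24 replicate 3), and neither passed the fold threshold there. In H24/H8, 1 of 12 was called lower (3.05% of all genes were), ELN (-1.16, SE 0.41, edgeR adjusted p = 0.341). ELN was at -0.99 without H24 replicate 3, just short of the fold threshold. In that fit 1 of 12 was called lower, the collagen gene COL3A1 (-1.01, and -1.15 with all libraries). Of all 14589 genes tested there, 365 were called lower. In H24/H8, 1 of 12 was also called higher (7.22% of all genes were), VCAN (1.88, SE 0.31). Without H24 replicate 3, 2 of 12 were called higher (3.75% of all genes were), VCAN (1.80) and ACAN (1.07). Of the other lysosomal enzymes and membrane proteins, 14 of 26 were called higher (9.95% of all genes were) and 0 lower, with a median log2 fold change of 1.23, which became 5 of 26 and 0.45 without H24 replicate 3 (6.49% of all genes). The median over the 8 measured cathepsins, CST3 left out, was 3.37 with all libraries and 1.43 without that one.

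**Figure D5:**
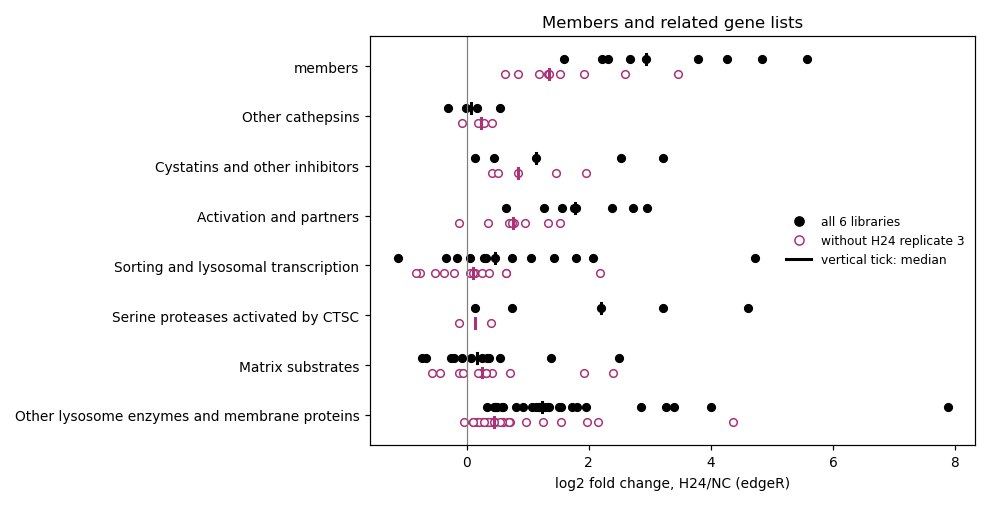
edgeR log2 fold changes in H24/NC for the 9 measured members and for 7 related gene lists, with 1 point per tested gene (filled, all 6 libraries; open, without H24 replicate 3) and a vertical tick at each median. The members' median is 2.94 (1.35 without H24 replicate 3), that of the other lysosomal genes 1.23 (0.45) and that of the matrix substrates 0.16 (0.26).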

How the data were processed

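The authors mapped paired-end poly(A) reads to Sscrofa11.1 with HISAT 2.0 and assembled and quantified them with StringTie 1.3.0. The submitters' processing notes also list Bowtie 0.12.2 and a mouse build (mm8), with no role given. The deposited table holds FPKM values and estimated counts for 9 libraries. How the authors derived the deposited expected counts, and the annotation release, are not given in the sources used here. The members and gene lists were chosen with earlier results of these data known.

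The main test was edgeR's two-sided quasi-likelihood test (version 4.0.16, R 4.3.3) on the counts of the 2 groups compared, with TMM scaling, for genes averaging 0.1 FPKM or more. Called genes had a log2 fold change beyond 1 with an unadjusted p under 0.05 (the study's thresholds), and adjusted p-values were computed over all genes tested. The SE is the log2 fold change divided by the root of the F statistic. DESeq2 1.42.0, limma 3.58.1 on log2(FPKM + 0.1) or log2(FPKM + 1), other scalings, filters and sample sets were alternatives. The fit was tested on simulated data. No 2 libraries agreed within sampling noise. The named genes were the members and, in each other list, at most 3 with the smallest p-values in H24/NC, except the other lysosomal genes, which are counted. CTSF, SERPINB1, SORT1, M6PR, ACAN, COL1A1, COL1A2, COL3A1, ARNT, HORMAD1 and GOLPH3L fell outside this rule and were chosen after seeing their values. The 5 genes most like CTSS and CST3 were ranked by Pearson correlation, and again over 8 libraries as an alternative added after seeing the data. Sequences were not used here.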

Additional observations from a re-analysis of the deposited data

How the results depend on the processing

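No member changed direction under any setting tried in the 3 comparisons. In H24/NC, 7 to 9 of 9 members were called higher under every setting. Of all genes, 714 to 1795 were called higher, with 11346 to 18407 tested. In H8/NC the 5 called members became 3 with scaling by library size only (4.02% of all genes). They became 3 with limma on log2(FPKM + 0.1) (3.17%) and on log2(FPKM + 1) (1.41%), and 1 with all 9 libraries in one fit (3.72%). Leaving out single libraries gave 2 to 5, against 569 to 796 of all 14256 to 14384 genes tested. In H24/H8 the 6 called became 0 to 8 when single libraries were left out, against 547 to 1407 of all 14589 to 14892 genes tested. Scaling by library size only moved the median log2 fold change of all genes to -0.133 in H8/NC and 0.238 in H24/H8, and limma on log2(FPKM + 0.1) moved it to -0.119 and 0.181. With library size only, the called genes of H8/NC went from 733 higher and 326 lower to 576 and 459, and those of H24/H8 from 1068 and 451 to 1447 and 290. The causes were not tested. With the replicate block, 8 members were called in H24/NC, 4 in H8/NC and 1 in H24/H8. Of all genes, 1114 of 14828, 639 of 14336 and 800 of 14788 were called higher in those fits. The labels number replicates 1 to 3 in each group, but same-numbered libraries did not deviate together (correlations of deviations from -0.08 to 0.093), so the numbers were not taken as pairs. Of the single members' values under these alternatives, 11 lost their call in H24/NC, 19 in H8/NC and 30 in H24/H8, where 14 gained one (DESeq2 gave no p for CTSL in the H24 comparisons, which is not counted). With 3 libraries a group and H24 replicate 3 far from the others, the size of the H24 changes is poorly fixed: over all settings the log2 fold change in H24/NC was 3.47 to 6.10 for CTSS, 2.6 to 4.70 for CTSD, 1.35 to 2.51 for CST3 and 0.84 to 5.40 for CTSL.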
